A study of Rattus norvegicus with 20 samples.

Results

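The growth hormone and STAT5 pathway was followed through 10 genes, Ghr, Stat5a, Stat5b, Cish, Socs2, Socs3, Igf1, Igfals, Igfbp3 and Bcl6. They were taken by gene symbol from the array annotation and were covered by 15 of the 31042 probe sets analysed. Each gene was represented by the probe set with the highest mean level, which left 14217 genes on the array, and 4 of the 10 had further probe sets. Livers came from male Harlan Sprague-Dawley rats given triphenyl phosphate, an organophosphate flame retardant and plasticiser, by gavage in corn oil on 4 consecutive days and killed on day 5. The groups were vehicle with 5 arrays and 55, 110, 220, 440 and 881 mg/kg with 3 arrays each, and all groups received corn oil. The sample labels give the fourth dose as 440 mg/kg and the study text as 441 mg/kg. The study text speaks of 3 rats in a group while vehicle has 5 arrays, and no label ties an array to an animal, so p-values measure only the spread between these samples, which may be technical. The age of the rats is not given in the sources used here.

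Growth hormone from the pituitary binds its receptor, encoded by Ghr, on hepatocytes, and the kinase JAK2 bound to that receptor activates STAT5A and STAT5B. The STAT5 proteins enter the nucleus and switch on Igf1, Igfals and a set of feedback inhibitors that includes Cish and Socs2. The male rat pituitary releases growth hormone in pulses, and the activity of STAT5 in male rat liver is known to follow them. IGF1 circulates with IGFBP3 and the acid-labile subunit, the product of Igfals, and BCL6 is a repressor that binds many of the same sites as STAT5.

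The values were log2 expression levels from robust multi-array averaging, so a log2 change of 1 is a change by a factor of 2. Replicate 2 at 881 mg/kg stood apart from the other arrays. Its Gapdh probe sets at the 3′ and 5′ ends of the transcript differed by 5.24, against 0.81 to 1.64 on the other 19 arrays, a measure of RNA quality. Its median correlation with the other arrays was 0.979, against 0.990 to 0.994 for the others, and calls and changes at 881 mg/kg are also given without it where leaving it out alters them. The hepatocyte markers that the liver label calls for were present, at a mean level of 13.92 to 14.04 at 881 mg/kg, against 14.00 to 14.06 in vehicle.

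At the 3 lower doses Cish rose and no other of the 10 genes passed the test, while at the 2 higher doses Socs2, Igf1 and Igfbp3 fell. Socs2 and Igfbp3 had negative changes at the 3 lower doses as well. With the higher doses set against the lower ones neither passed the test, with limma adjusted p of 0.139 and 0.073. A gene is said to have risen or fallen where limma's adjusted p over all 14217 genes was under 0.05. Of the 10 genes 1, Cish, rose at 55 mg/kg, against 1.93% of all genes that rose there. Cish alone rose also at 110 mg/kg, where 2.36% of all genes rose, and at 220 mg/kg, where 2.25% did. Socs2, Ghr, Igf1 and Igfbp3 fell at 440 mg/kg, 4 of 10, against 4.28% of all genes. All 4 calls were lost without replicate 3 of that dose. At 881 mg/kg Socs2, Stat5a, Igf1 and Igfbp3 fell, again 4 of 10, against 6.73% of all genes. Without replicate 2 there 3 of 10 fell, as the Socs2 call was lost, against 3.93% of all genes. The median log2 change of the 10 genes was -0.25 at 881 mg/kg and -0.24 at 440 mg/kg, where the median over all genes was 0.0007 and -0.0016. The groups did not overlap for 7 of 10 genes at 881 mg/kg, with every dosed array below every vehicle array, against 8.31% of all genes. Those 7 were Socs2, Socs3, Ghr, Stat5a, Igf1, Igfals and Igfbp3, and the same 7 lay below without replicate 2, against 13.3% of all genes. In whole liver, fewer cells of a type and less RNA per cell cannot be told apart.

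**Figure D1:**
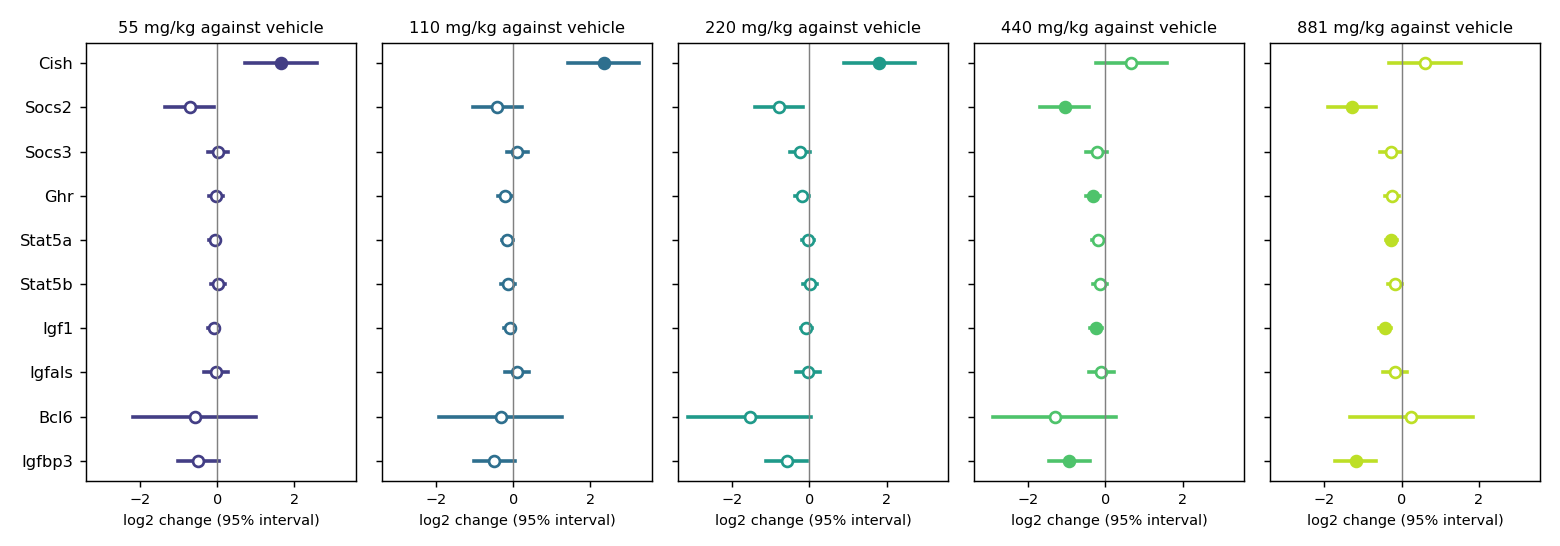
Log2 change of the 10 genes at each dose against vehicle, with the 95% interval from limma as a bar; filled circles mark an adjusted p under 0.05. Cish lies between 1.65 and 2.34 at the 3 lower doses and its intervals reach below 0 at 440 and 881 mg/kg. Socs2, Igf1 and Igfbp3 lie below 0 at every dose and are filled only at 440 and 881 mg/kg.

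Ghr encodes the growth hormone receptor. Its main probe set read 12.32, 12.38, 12.30, 12.27 and 12.35 in the 5 vehicle livers and 12.16, 12.38 and 12.33 at 55 mg/kg. Ghr read 12.25, 12.01 and 12.07 at 110 mg/kg and 12.12, 12.32 and 11.96 at 220 mg/kg. It read 12.14, 12.08 and 11.81 at 440 mg/kg and 12.07, 12.07 and 12.12 at 881 mg/kg. All 3 arrays at 440 mg/kg and all 3 at 881 mg/kg lay below the lowest vehicle array, as did all 3 at 110 mg/kg, while the groups overlapped at 55 and 220 mg/kg. Ghr fell by 0.32 ± 0.09 (SE) at 440 mg/kg with a limma adjusted p of 0.0265, a call lost in 5 of 30 alternative settings. At 881 mg/kg its change was -0.24 ± 0.09 with an adjusted p of 0.0634, and -0.23 without replicate 2. The second probe set changed by -0.25 ± 0.30 at 440 mg/kg and -0.77 ± 0.30 at 881 mg/kg, with adjusted p over all probe sets of 0.720 and 0.103. Its lowest array by far was replicate 2 at 881 mg/kg, at 6.99, against 8.95 and 9.04 on the other 2 arrays at that dose.

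STAT5B is the more abundant STAT5 protein of liver and STAT5A its close paralogue, and whether their probe sets separate the 2 transcripts was not tested. Stat5a read 8.26, 8.14, 8.12, 8.12 and 8.14 in the 5 vehicle livers and 8.18, 8.14 and 7.96 at 55 mg/kg. Stat5a read 7.92, 8.003 and 8.10 at 110 mg/kg and 8.05, 8.15 and 8.15 at 220 mg/kg. It read 7.89, 7.89 and 8.10 at 440 mg/kg and 7.86, 7.92 and 7.91 at 881 mg/kg. All 3 arrays at 110, at 440 and at 881 mg/kg lay below the lowest vehicle array. Stat5a fell by 0.26 ± 0.07 at 881 mg/kg, a fold of 0.835 with an adjusted p of 0.0155, and its change without replicate 2 was -0.27, with an adjusted p of 0.0389. Its change at 440 mg/kg was -0.20 with an adjusted p of 0.0820. Stat5b ranged from 7.21 to 7.42 at 881 mg/kg, against 7.27 to 7.61 in vehicle, and the groups overlapped. Its change there was -0.17, with a 95% interval from -0.36 to 0.01 and an adjusted p of 0.175, so a fall of the size seen for Stat5a lies inside the interval. Without replicate 2 it was -0.13, with an adjusted p of 0.435.

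Cish encodes CIS, an inhibitor that binds the activated receptor, and in mouse its promoter is a well known STAT5 target. The rat promoter is shown because Cish was the only one of the 10 genes that rose. It is RefSeq sequence of build GRCr8, chr8:116850719-116851018, plus strand, from 250 bases before to 50 bases after the gene start, and capitals mark matches to TTCNNNGAA, the core that STAT proteins bind:
Cish promoter: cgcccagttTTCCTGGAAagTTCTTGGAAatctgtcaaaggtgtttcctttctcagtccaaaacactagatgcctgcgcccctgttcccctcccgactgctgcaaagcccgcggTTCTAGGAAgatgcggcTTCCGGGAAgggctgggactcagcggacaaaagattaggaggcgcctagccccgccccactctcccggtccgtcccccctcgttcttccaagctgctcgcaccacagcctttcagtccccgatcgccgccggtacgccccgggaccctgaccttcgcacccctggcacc

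The 4 matches start 241, 230, 136 and 119 bases before the gene start and do not overlap, and the motif reads the same on both strands. The promoter table has a window for 9 of the 10 genes and none for Socs2. In 4 of the 9, Cish, Stat5a, Bcl6 and Igfbp3, the window lies at the start of the annotated gene, and in the other 5 at a start 226 to 100520 bases inside it. The windows of the 8 genes other than Cish held no match. For Socs3, Ghr, Igf1 and Igfals this says nothing of the annotated gene start. The Stat5b window, at a start 226 bases inside the gene, reaches the annotated start but covers few bases before it. At least 1 match was present in 8.87% of 33469 promoters of that length, at least 3 in 8 promoters (0.0239%) and at least 4 in 2 promoters. The form with 4 bases in place of 3 between the arms, present in 7.28% of promoters, was found in none of the 9. A match is a description of these letters and not evidence of binding.

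The main probe set of Cish read 6.73, 6.79, 6.61, 6.83 and 6.83 in the 5 vehicle livers and 8.31, 8.23 and 8.69 at 55 mg/kg. Cish read 9.80, 8.73 and 8.76 at 110 mg/kg and 8.17, 9.23 and 8.31 at 220 mg/kg. It read 8.72, 6.73 and 6.82 at 440 mg/kg and 6.51, 6.91 and 8.67 at 881 mg/kg. All 9 arrays of the 3 lower doses lay above all 5 vehicle arrays. At the 2 higher doses replicate 1 at 440 mg/kg and replicate 3 at 881 mg/kg lay among the arrays of the lower doses. Cish rose 5.06-fold at 110 mg/kg, by 2.34 ± 0.44 (SE) on the log2 scale, with a limma adjusted p of 0.00537. It rose 3.52-fold at 220 mg/kg, by 1.82 ± 0.44 with an adjusted p of 0.0272, and 3.15-fold at 55 mg/kg, by 1.65 ± 0.44 with an adjusted p of 0.04995. The call at 55 mg/kg was lost in 18 of 30 alternative settings and the one at 220 mg/kg in 8 of 30. At 440 mg/kg the change was 0.67, with a 95% interval from -0.26 to 1.59 and an adjusted p of 0.377. At 881 mg/kg it was 0.61, with an interval from -0.32 to 1.53 and an adjusted p of 0.357, and 0.83 without replicate 2.

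**Figure D2:**
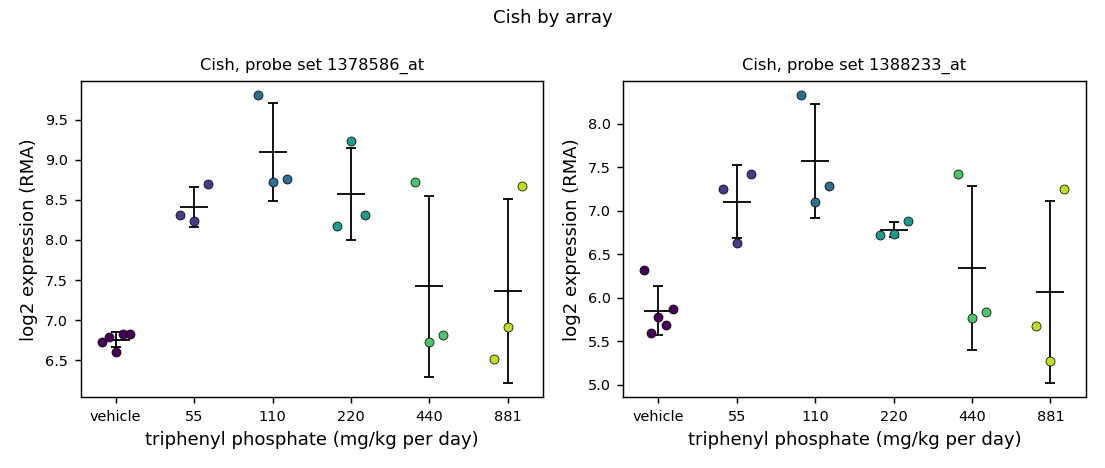
Log2 expression of both Cish probe sets on each of the 20 arrays by daily dose in mg/kg; points are arrays, dashes the group mean and bars the SD. In both probe sets 1 array at 440 mg/kg and 1 at 881 mg/kg stand with the arrays of the 3 lower doses and the other 4 with vehicle.

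The second Cish probe set showed the same split. It read 7.43, 5.77 and 5.83 at 440 mg/kg and 5.68, 5.27 and 7.25 at 881 mg/kg, against 6.32, 5.59, 5.78, 5.69 and 5.87 in vehicle. It rose by 1.72 ± 0.40 at 110 mg/kg, with an adjusted p over all probe sets of 0.0287, and its changes of 1.25 at 55 mg/kg and 0.93 at 220 mg/kg had adjusted p of 0.149 and 0.321. Over the 20 arrays the values of the main probe set fell into 11 arrays between 8.17 and 9.80 and 9 arrays between 6.51 and 6.91, with a gap of 1.26 and no array inside it. Above the gap were 0 of 5 vehicle arrays, 3 of 3 at each of 55, 110 and 220 mg/kg, 1 of 3 at 440 mg/kg and 1 of 3 at 881 mg/kg. The SD of Cish within groups, 0.694, was larger than that of 99.7% of all genes.

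Because of this split, 2 comparisons were added after the data were seen, and they are descriptions of a pattern already noticed. With the 3 lower doses pooled Cish rose by 1.94 ± 0.34 against vehicle, with a limma adjusted p of 0.00121, and it was the 1 gene of 10 to rise, against 5.66% of all genes. With the 2 higher doses set against the 3 lower ones, Cish fell by 1.30 ± 0.32 with an adjusted p of 0.0164, a call lost without 440 mg/kg replicate 2 or 3 (adjusted p up to 0.0559). Igf1 fell in that comparison as well, by 0.25 ± 0.05 with an adjusted p of 0.00605, so that 2 of 10 genes fell, against 3.65% of all genes.

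Socs2 encodes a second feedback inhibitor, whose loss in mice leads to overgrowth. Socs2 read 8.28, 7.26, 7.33, 7.41 and 7.16 in the 5 vehicle livers and 6.93, 6.59 and 6.81 at 55 mg/kg. Socs2 read 7.60, 6.59 and 7.03 at 110 mg/kg and 7.08, 6.32 and 6.71 at 220 mg/kg. It read 6.90, 6.28 and 6.13 at 440 mg/kg and 6.34, 5.42 and 6.86 at 881 mg/kg. All arrays at 440 and at 881 mg/kg lay below the lowest vehicle array, 7.16, and so did those at 55 and 220 mg/kg. Socs2 fell by 1.05 ± 0.30 at 440 mg/kg with an adjusted p of 0.0291, a call lost in 3 of 30 alternative settings. It fell by 1.28 ± 0.30 at 881 mg/kg, a fold of 0.411, with an adjusted p of 0.00577. Without replicate 2 at 881 mg/kg, its lowest array, the change was -0.89 with an adjusted p of 0.0601 and the call was lost. Without vehicle replicate 1, its highest array, the change at 440 mg/kg was -0.86 with an adjusted p of 0.0649, and Igf1 and Igfbp3 lost their calls at that dose too, with adjusted p of 0.0675 and 0.0509. The Socs2 changes of -0.71, -0.41 and -0.79 at 55, 110 and 220 mg/kg had adjusted p of 0.240, 0.534 and 0.179.

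Socs3 encodes the inhibitor that is best known as a target of interleukin-6 and STAT3. It ranged from 6.07 to 6.10 at 881 mg/kg, against 6.14 to 6.72 in vehicle. Its change at 881 mg/kg was -0.28 with an adjusted p of 0.126, and also -0.28 without replicate 2. Tested as a trend over the 6 dose steps it fell by 0.07 a step with an adjusted p of 0.0359, a call lost in 11 of 30 alternative settings. In that trend 6 of 10 genes fell, Socs2, Socs3, Ghr, Stat5a, Igf1 and Igfbp3, against 8.81% of all genes. The trend of Cish was 0.07 a step, with a 95% interval from -0.18 to 0.32.

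Igf1 encodes the growth factor that liver releases into blood under growth hormone. Its main probe set read 14.14, 14.11, 14.13, 14.05 and 14.00 in the 5 vehicle livers and 14.10, 14.00 and 13.89 at 55 mg/kg. Igf1 read 14.05, 13.94 and 13.98 at 110 mg/kg and 13.93, 14.04 and 14.06 at 220 mg/kg. It read 13.89, 13.94 and 13.69 at 440 mg/kg and 13.73, 13.62 and 13.60 at 881 mg/kg. All arrays at 440 and 881 mg/kg lay below the lowest vehicle array, and the groups at 881 and 440 mg/kg overlapped. Igf1 fell by 0.25 ± 0.07 at 440 mg/kg with an adjusted p of 0.0345, a call lost in 10 of 30 alternative settings. At 881 mg/kg it fell by 0.43 ± 0.07, a fold of 0.740, with an adjusted p of 0.000447, and without replicate 2 the change was -0.42 with an adjusted p of 0.00279. The other 2 probe sets fell by 0.86 ± 0.13 and 0.95 ± 0.16 at 881 mg/kg, with adjusted p over all probe sets of 0.00027 and 0.00058. Whether the 3 differ in size was not tested. At 881 mg/kg the first of these 2 read 12.94, 12.36 and 12.76, against 13.31 to 13.79 in vehicle. The other read 10.87, 10.11 and 10.89, against 11.38 to 11.78. Both were lowest on replicate 2, and their changes without it were not computed. The call at 881 mg/kg held in 30 of 30 alternative settings. Between 881 and 440 mg/kg 0 of 10 genes passed limma's test, against 0.260% of all genes. By limma's unadjusted p 1 of the 10, Igf1, was under 0.05, at 0.0321, with a change of -0.19, a share close to the 10.6% of all genes.

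**Figure D3:**
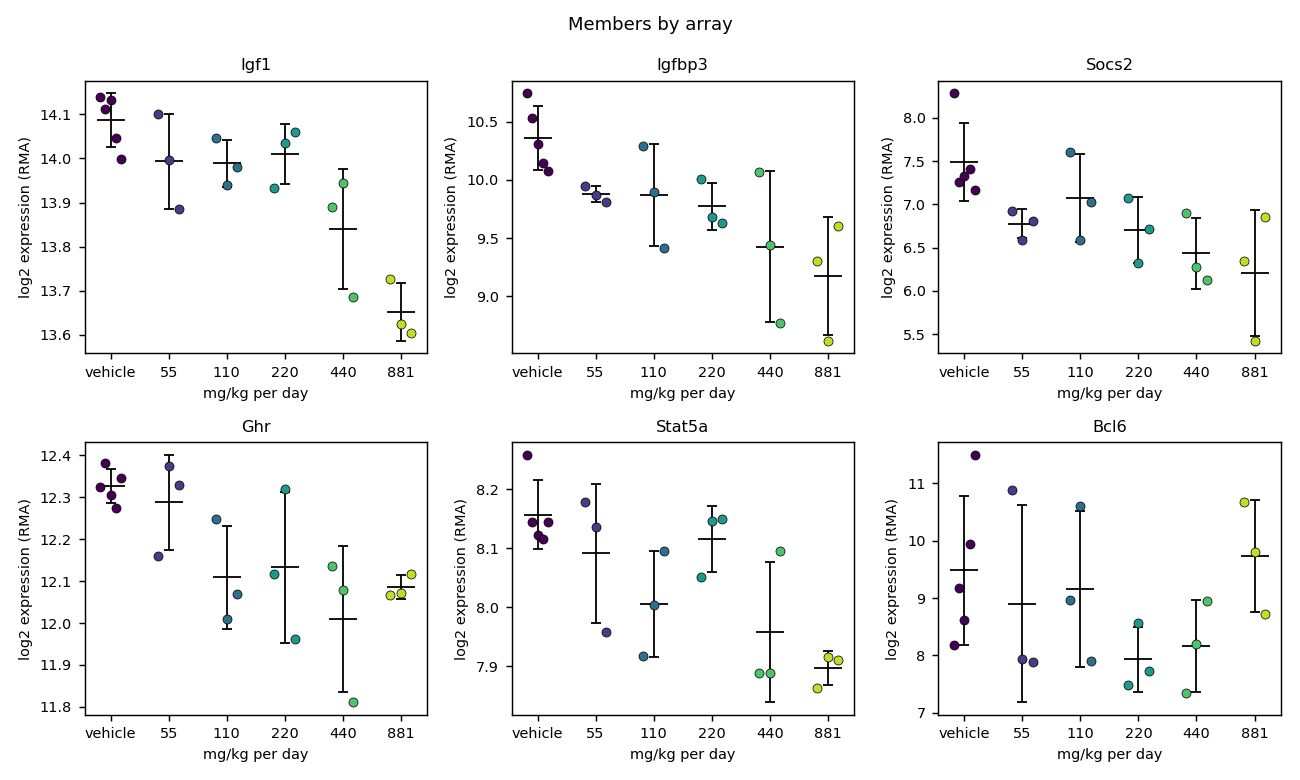
Log2 expression of Igf1, Igfbp3, Socs2, Ghr, Stat5a and Bcl6 on each of the 20 arrays by daily dose in mg/kg; points are arrays, dashes the group mean and bars the SD. Igf1 at 881 mg/kg lies between 13.60 and 13.73, below all vehicle arrays, while Bcl6 spreads widely in vehicle and at most doses.

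Igfbp3 encodes the main carrier of IGF1 in blood, and in rat liver it is known to be made mostly by cells other than hepatocytes. Its main probe set read 10.75, 10.53, 10.31, 10.15 and 10.07 in the 5 vehicle livers and 9.95, 9.87 and 9.81 at 55 mg/kg. Igfbp3 read 10.29, 9.89 and 9.42 at 110 mg/kg and 10.01, 9.68 and 9.63 at 220 mg/kg. It read 10.07, 9.44 and 8.77 at 440 mg/kg and 9.31, 8.61 and 9.60 at 881 mg/kg. All arrays at 881 mg/kg and all at 440 mg/kg lay below the lowest vehicle array, 10.07, with the highest at 440 mg/kg just under it. So did all arrays at 55 and at 220 mg/kg. The changes of -0.49, -0.49 and -0.59 at 55, 110 and 220 mg/kg had limma adjusted p of 0.366, 0.341 and 0.24. With the 2 higher doses set against the 3 lower ones the change was -0.54, with an adjusted p of 0.073. Igfbp3 fell by 0.94 ± 0.25 at 440 mg/kg with an adjusted p of 0.0216, a call lost in 3 of 30 alternative settings. It fell by 1.19 ± 0.25 at 881 mg/kg, a fold of 0.439, with an adjusted p of 0.00295, and without replicate 2 the change was -0.91 with an adjusted p of 0.0310. The second probe set fell by 1.17 ± 0.22 at 440 mg/kg and by 1.57 ± 0.22 at 881 mg/kg, with adjusted p over all probe sets of 0.00355 and 0.00016. It read 9.10, 8.17 and 9.09 at 881 mg/kg, lowest on replicate 2, and its change without that array was not computed.

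Kupffer, stellate and endothelial cell markers were also lower at the doses where Igfbp3 fell, and bile duct markers were not. At 881 mg/kg, where 6.73% of all genes fell, 8 of 11 Kupffer cell markers fell and none rose, and their mean level was 9.07 to 9.61, against 9.76 to 10.11 in vehicle. Of 18 stellate cell markers 10 fell, with a mean level of 7.41 to 7.72 at 881 mg/kg, against 7.79 to 8.10 in vehicle. Of 12 endothelial markers 4 fell, with levels of 8.23 to 8.79 at 881 mg/kg, against 8.74 to 9.03 in vehicle. Without replicate 2 at 881 mg/kg the numbers that fell were 4, 5 and 1, against 3.93% of all genes. At 440 mg/kg, where Igfbp3 fell too and 4.28% of all genes fell, they were 3, 8 and 5. Of 9 bile duct markers 1 rose and none fell at either dose, with a median log2 change of 0.06 at 881 mg/kg and 0.15 at 440 mg/kg. Values on this scale have no zero, so no marker is at 0. These values stand beside the fall of Igfbp3, and their part in it was not tested.

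Igfals encodes the acid-labile subunit and is made by hepatocytes. It read 11.61, 11.57 and 11.62 at 881 mg/kg, against 11.75, 11.73, 11.80, 11.73 and 11.81 in vehicle. The groups did not overlap, yet the change of -0.17 had a 95% interval from -0.48 to 0.15 and an adjusted p of 0.463, and without replicate 2 it was -0.15. At 440 mg/kg Igfals spread from 11.19 to 12.08.

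Bcl6 had the widest spread of the 10 genes. It read 8.18, 9.18, 8.62, 9.94 and 11.49 in the 5 vehicle livers and 10.88, 7.94 and 7.88 at 55 mg/kg. Bcl6 read 8.96, 10.59 and 7.90 at 110 mg/kg and 7.49, 8.57 and 7.74 at 220 mg/kg. It read 7.35, 8.20 and 8.95 at 440 mg/kg and 10.68, 9.80 and 8.72 at 881 mg/kg. Its values overlapped between vehicle and each dose. The within-group SD was 1.20, larger than that of all but a few genes (99.96% were smaller). No change passed the test, and the changes ran from -1.55 at 220 mg/kg, with an adjusted p of 0.317, to 0.25 at 881 mg/kg, with an adjusted p of 0.851 and a 95% interval from -1.34 to 1.84. Without replicate 2 the change at 881 mg/kg was 0.22. The interval allows both a large fall and a large rise.

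The 2 higher-dose arrays with high Cish were set against the other arrays of their own dose. Socs2, Ghr, Igfals and Igfbp3 had their group's highest value on both, replicate 1 at 440 mg/kg and replicate 3 at 881 mg/kg. Of all genes 33.7% had theirs on the first array and 27.2% on the second, and the share on both was not computed. Replicate 2 at 881 mg/kg, the array that stood apart, was the lowest of its group for Socs2, Igfals and Igfbp3. At 881 mg/kg the lead was small for Igfals, 11.62 against 11.61 and 11.57, and for Ghr, 12.12 against 12.07 and 12.07. Bcl6 had its lowest value on both high-Cish arrays, and Igf1 and Socs3 had theirs on replicate 3 at 881 mg/kg. Stat5a read 7.89 on both replicate 1 and replicate 2 at 440 mg/kg, a tie for its lowest. Of all genes 37.6% had their lowest on the first high-Cish array and 35.4% on the second, and the share on both was not computed. As the arrays were chosen after their values were seen, these ranks are a description. With the dose means removed, Cish had a Pearson r over the 20 arrays of 0.575 with Igfbp3, 0.562 with Ghr and -0.284 with Bcl6. The highest r between any other pair were 0.795 for Socs3 with Bcl6 and 0.770 for Socs2 with Igfbp3. With dose means kept, the r of Cish with Igfbp3 was 0.284 within the 11 arrays with high Cish and -0.199 within the 9 with low Cish. With Ghr it was 0.263 and -0.028. These are descriptions over arrays that share dose groups, and both genes of a pair were read on the same arrays.

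Across all 20 arrays, among 10478 named genes with a mean level of at least 6, the gene whose levels were most like Cish was Hhex, a homeobox factor of liver, with r = 0.927. The gene most opposed was Egfr, the receptor of epidermal growth factor, with r = -0.918. The separation of the 11 arrays with high Cish from the 9 with low Cish enters these r. Within the 11 they were 0.654 for Hhex and -0.781 for Egfr, and within the 9 they were 0.042 and 0.053. With the dose means removed they were 0.839 and -0.849 over the 20 arrays, which leaves the split inside 440 and 881 mg/kg in place. Dusp1, Ccdc117, Prkag2 and Fam117b followed Hhex with r from 0.794 to 0.842, and Znf750, Asap3, Nedd4l and Pgk1 followed Egfr with r from -0.864 to -0.739. The median level of Hhex was 10.37 in vehicle, 11.40 at 55 mg/kg, 11.40 at 110 mg/kg, 11.57 at 220 mg/kg, 10.66 at 440 mg/kg and 10.73 at 881 mg/kg.

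**Figure D4:**
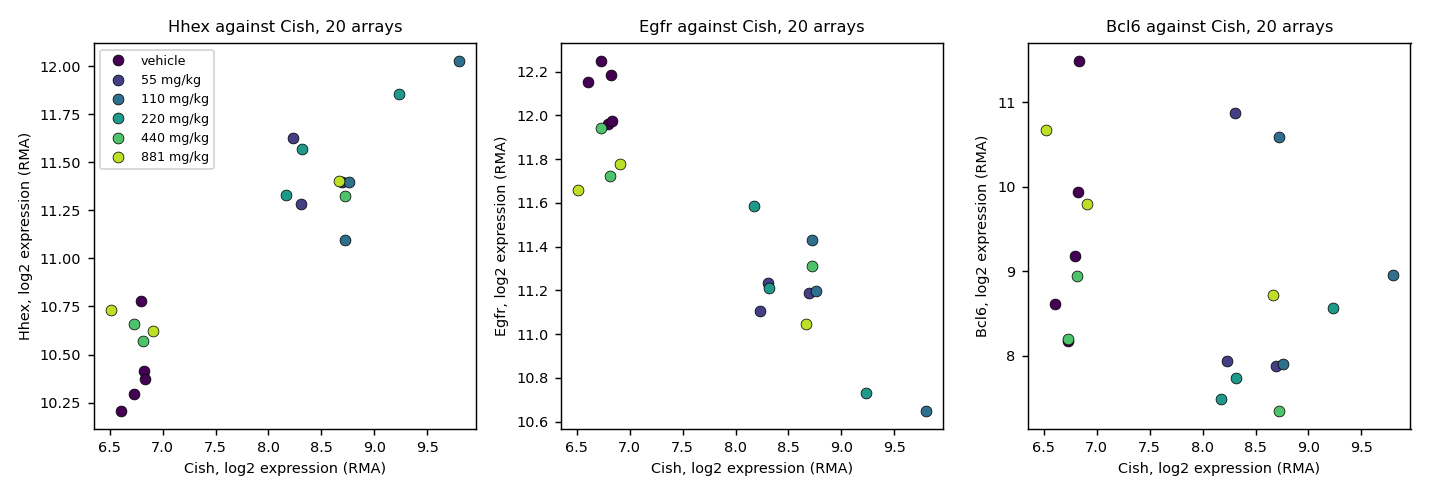
Log2 expression of Hhex, Egfr and Bcl6 against that of Cish on the 20 arrays, coloured by dose group. Hhex is high and Egfr low on the 11 arrays with Cish at 8.17 or more, which hold all arrays of the 3 lower doses and 1 array each of 440 and 881 mg/kg, and Bcl6 shows no such split.

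Other genes of the pathway were read from lists chosen with earlier results of these data known, so their counts beside all genes are descriptions. Of 32 genes close to the receptor, 2 rose and none fell at 881 mg/kg, against 12.7% of all genes that rose and 6.73% that fell. Without replicate 2 those shares of all genes were 7.62% and 3.93%. The 2 were Shc1, an adaptor, at 0.35 ± 0.08 with an adjusted p of 0.00497, and Tyk2, a kinase of the JAK family, at 0.23 ± 0.08 with an adjusted p of 0.0419, and without replicate 2 only Shc1 rose. Jak2, the receptor's own kinase, changed by -0.13, with a 95% interval from -0.36 to 0.11, and by 0.05 without replicate 2. Of 16 further genes of the IGF axis, 2 rose and 3 fell at 881 mg/kg, and without replicate 2 there 2 rose and none fell. Igf2r, which clears IGF2, rose by 0.60 ± 0.07 and Pcsk6, a protease, by 0.63 ± 0.14, or 0.40 without replicate 2. Igfbp2 and Igfbp7, IGF-binding proteins, fell by 0.94 ± 0.27 and 0.77 ± 0.22. The other gene that fell was Igf2bp2, an RNA-binding protein, at -0.31, named after its value was seen. The calls of these 3 were lost without replicate 2, with changes of -0.88, -0.61 and -0.30 and adjusted p of 0.0791, 0.125 and 0.0790. Igf1r, the IGF1 receptor, fell by 0.31 ± 0.10 at 440 mg/kg with an adjusted p of 0.0473, and its change at 881 mg/kg was -0.18 with an adjusted p of 0.212. Igfbp1, a binding protein that liver makes when insulin is low, fell by 3.00 ± 0.69 at 440 mg/kg. Its arrays there read 6.34, 8.23 and 10.35, against 10.13 to 12.10 in vehicle, so the highest lay inside the vehicle range. At 881 mg/kg Igfbp1 changed by -0.96 ± 0.69, or -1.66 without replicate 2, with a limma adjusted p of 0.350 and 0.163.

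Of 17 transcription factors of growth hormone regulated genes, 2 rose and 2 fell at 881 mg/kg, with and without replicate 2, beside the shares of all genes given above. Trim24 rose by 1.54 ± 0.26 and Foxa2 by 0.69 ± 0.20, while Foxa3 fell by 1.56 ± 0.31, with a change of -0.96 without replicate 2, and Nr1i2 by 0.44 ± 0.07. Of 28 genes listed as responsive to growth hormone in liver, 6 rose and 8 fell at 881 mg/kg, and 5 rose and 6 fell without replicate 2. With it the shares of all genes were the same 12.7% and 6.73%. That list too was chosen with earlier results of these data known, so its counts are a description. Among the 28 genes Stac3 fell by 3.54 ± 0.45 and Serpina7, the thyroxine-binding globulin, by 2.34 ± 0.31. Akr1b7 rose by 4.86 ± 0.72, or 4.33 without replicate 2, and Gstp1, a glutathione transferase, rose by 2.22 ± 0.26. Of 25 genes of the interleukin-6 and STAT3 response, 3 rose and 2 fell, with and without replicate 2. Of all genes 12.7% rose and 6.73% fell with it, and 7.62% rose and 3.93% fell without it. The counts with replicate 2 lie close to those shares. Orm1, an acute phase protein, rose by 0.71 ± 0.16, Il1r1, an interleukin-1 receptor, by 0.64 ± 0.19 and Hamp, the iron hormone hepcidin, by 0.47 ± 0.09. Junb, an immediate early factor, fell by 0.55 ± 0.17, and its call was lost without replicate 2, with an adjusted p of 0.0690. Stat3 itself changed by 0.47 ± 0.24 with an adjusted p of 0.169, beside the change of -0.28 for Socs3.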

How the data were processed

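The deposited table holds log2 expression values, produced by the authors with robust multi-array averaging (RMA) per the submitters' processing notes, for 31099 probe sets on 20 Affymetrix arrays; it has no detection calls, so the number of arrays limits the precision. After 57 control probe sets were removed, 20826 of 31042 probe sets had 1 gene symbol, 436 had several and 9780 had none, and 20758 were matched to RefSeq (GRCr8). Levels of different probe sets were not compared. At most 0.0225% of the values were identical between any pair of arrays.

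A model of 6 dose groups was fitted to 14217 genes with limma 3.58.1 in R 4.3.3, with Benjamini-Hochberg adjustment over all genes; the median SE of a log2 change at 881 mg/kg was 0.102. The trend used dose steps 0 to 5. Tables and figures used Python 3.11.15 (NumPy 2.4.6, pandas 2.3.3; plots with matplotlib 3.10.9). The fit was tested on simulated data. The genes and lists were chosen with earlier results of these data known. All 10 genes are named; of each pathway list, up to 4 genes called at 881 mg/kg with the largest change are named, with Jak2, Stat3, Igf1r, Igfbp1 and Igfbp2; of genes like Cish, the 5 highest and 5 lowest r. Alternatives were other probe set rules, filters, scalings, covariates, array weights, a replicate block and leaving out each array. Lists of bile duct, lymphocyte and blood cell markers were also read: at 881 mg/kg 1 of 9 rose, 4 of 12 fell and 2 of 8 fell. Without replicate 2 there 1 rose, 1 fell and 2 fell. Of 13 hepatocyte markers 1 rose and 3 fell at 881 mg/kg, and 1 rose and 0 fell without replicate 2. Of all genes 12.7% rose and 6.73% fell, and 7.62% rose and 3.93% fell without replicate 2.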

Additional observations from a re-analysis of the deposited data

Results flagged for a closer look

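Of the 15 probe sets, 3 had a vehicle array whose distance from the nearest other array was a large share of the range of the 5, a distance that chance gives in about 1 in 20 groups. Socs2 read 8.28 on vehicle replicate 1, against 7.16 to 7.41 on the other vehicle arrays. Stat5a read 8.26 on the same array, against 8.12 to 8.14 on the others. The second Igfbp3 probe set read 10.0 on vehicle replicate 5, against 10.40 to 10.52 on the others. Without vehicle replicate 1, Stat5a at 881 mg/kg changed by -0.24 with a limma adjusted p of 0.0375, and Socs2 by -1.08 with an adjusted p of 0.0137.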

How the results depend on the processing

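Of the calls in the comparisons with vehicle, that of Igf1 at 881 mg/kg held in all 30 alternatives, and no called change reversed. The number of the 10 genes called at 55 mg/kg was 0 with the mean of a gene's probe sets, with every probe set tested, with a trended and robust variance and without vehicle replicate 1 and 881 mg/kg replicate 2 together (added after seeing the data), and 2 with the beta-actin covariate. At 220 mg/kg it was 0 with the mean of probe sets and with the trended variance, and 2 with array weights and with the beta-actin covariate. Without those 2 arrays together it was 1 at 881 mg/kg and 1 for the higher against the lower doses. For the lower doses together it was 3 with array weights and 2 with the beta-actin covariate. With the replicate block it was 0 at 55 mg/kg, 1 at 110, 1 at 220, 3 at 440 and 4 at 881 mg/kg, 3 for the lower doses together, 4 for the higher against the lower doses and 5 for the trend. The block lost the Cish calls at 55 and 220 mg/kg and the Ghr call at 440 mg/kg. No label says that a number pairs samples. The deviations of samples with the same number had a median r of 0.216, 0.109 and 0.079 for numbers 1, 2 and 3, against -0.05 between different numbers, but not every pair correlated (the lowest r was -0.116), so a pairing was not assumed. Leaving out 1 array gave 0 to 1 genes at 55, 110 and 220 mg/kg, 1 to 4 at 440, 3 to 5 at 881, 0 for 881 against 440 mg/kg, 5 to 6 for the trend, 1 to 2 for the lower doses together and 1 to 3 for the higher against the lower. The Cish call at 110 mg/kg was lost without 110 mg/kg replicate 1 (adjusted p 0.0503). At 440 mg/kg the count was 1, Ghr, without vehicle replicate 1 and 1, Igf1, without replicate 2 of that dose. Without replicate 3 of that dose it was 1, Stat5a, and the calls of Socs2, Ghr, Igf1 and Igfbp3 were all lost. The count was 2 without vehicle replicate 2. The Ghr call at 440 mg/kg was lost without vehicle replicate 2 and without replicate 2, or 3, of that dose. The Cish call was lost at 220 mg/kg without vehicle replicate 2, 3 or 4 or replicate 2 or 3 of that dose, and at 55 mg/kg on leaving out any single vehicle or 55 mg/kg array and each of 5 arrays of other doses. Socs3 lost its trend call on leaving out any single 881 mg/kg array and each of 5 other arrays. Over all genes, called numbers ranged over the alternatives from 127 to 842 at 55 mg/kg (400 in the results above), 212 to 800 at 110 (513), 204 to 1293 at 220 (488), 867 to 2511 at 440 (1570), 1510 to 3889 at 881 (2767), 0 to 174 for 881 against 440 mg/kg (37), 2025 to 4379 for the trend (3087), 777 to 2030 for the lower doses together (1224) and 729 to 1480 for the higher against the lower (1174). The causes were not tested.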
